A study of Mus musculus with 6 samples.

Results

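Oxidative phosphorylation genes encode the respiratory chain of the inner mitochondrial membrane and the enzyme that makes ATP from its work. They were followed in Lgr5-GFP high cells, the stem cells at the base of the intestinal crypt, with and without a short exposure to interferon gamma (IFNg). Members were chosen by gene symbol: the Nduf subunits of complex I, the Sdh subunits of complex II, the Uqcr subunits of complex III, the Cox subunits of complex IV from families 5 to 8, the Atp5 subunits of complex V, and the genes of the mitochondrial genome for complexes I, III, IV and V. The symbol rule matched 94 genes, 82 in the nuclear and 12 in the mitochondrial genome. A mean of at least 10 scaled counts over the libraries was reached by 88 of them, 77 nuclear and 11 mitochondrial, among 16095 genes at that level in a table of 23127. By complex these were 35, 4, 8, 13 and 17 nuclear genes for complexes I, II, III, IV and V, and 6, 0, 1, 3 and 1 mitochondrial genes. Ndufa4 was counted with complex IV. Cox4i1, an abundant subunit of complex IV, and Cyc1 of complex III have symbols that the rule does not match, so they are in none of the counts or shares of members. Atp5s, Atp5sl and Cox7a2l carry family symbols and were kept because the rule names symbols, although they are not counted as core subunits. The 6 genes below the mean were Cox6a2, Cox7b2, mt-Atp8, Atp5l-ps1, Atp5k-ps2 and Atp5l2-ps.

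The mice were C57BL/6 carrying Lgr5-GFP, and small intestine was the tissue of the sort; Lgr5-GFP is a green fluorescent reporter of the stem cell gene Lgr5. There were 3 untreated libraries, with title numbers 5, 1 and 9, and 3 libraries of cells held for 1.5 h with 1 ng/ml IFNg in medium with EGF, Noggin and R-spondin1, with title numbers 6, 2 and 10. The titles give 1.5 for the untreated libraries too, but the protocol describes the incubation with IFNg only. Animal age, sex and number were not given in the sources used here. Whether each library is a different animal is not stated, so the p-values speak for the spread among these 6 libraries, which may be technical. Libraries 5 and 6 carry the title tag GFP1 and the other 4 carry GFP3, a tag whose meaning the labels do not state.

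Complexes I and II take electrons from NADH and succinate, complex III passes them through cytochrome c to complex IV, and complex IV reduces oxygen. Complexes I, III and IV pump protons, and complex V (ATP synthase) lets them back to make ATP. A small set of subunits at the catalytic core is encoded by mitochondrial DNA, the rest by nuclear genes, so both genomes supply each complex except complex II. Lgr5+ stem cells are known to rely on mitochondrial respiration more than their Paneth cell neighbours do.

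Reads assigned to genes numbered 28508762 to 40224497 per library. Of the 6 interferon response genes used as a treatment check, 5 passed the limma test, among them Gbp2, an interferon-induced GTPase. Its scaled counts were 37.9, 74.8 and 105 in untreated libraries 5, 1 and 9, and 14970, 18066 and 15616 in IFNg libraries 6, 2 and 10. Summed markers of stem cells took 0.879% to 0.947% of gene reads in every library, most of it Olfm4 (219690 to 266600 scaled counts). Lgr5 itself had 2801, 8499 and 5366 scaled counts in untreated libraries 5, 1 and 9 and 2484, 5310 and 4706 in IFNg libraries 6, 2 and 10, lowest in libraries 5 and 6. All 9 Paneth markers had fitted changes below 0 with IFNg, without passing the test. Their summed share was 0.351% to 1.15% in untreated and 0.0787% to 0.645% in IFNg libraries. The 10 handling stress genes took 0.295% to 0.321% of gene reads in untreated and 0.373% to 0.669% in IFNg libraries, and immune and stromal marker sums were at most 0.00197%. The part of these cell markers and stress genes in the values below was not tested.

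Several mitochondrial genes have copies in nuclear DNA, and a read that matches both places cannot be assigned to one gene. The deposited table keeps reads that align to several places in a row of their own, 18.5% to 25.0% of all reads in it. The start of mt-Nd3 (GRCm38, chrM:9459-9548, plus strand), a subunit of complex I, is shown beside its copy Gm28438 on the minus strand of chromosome 1 because only 1 of the 345 aligned bases differs. The capital marks that base, T3C, counted from the first base of mt-Nd3, with the mitochondrial base first.

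mt-Nd3: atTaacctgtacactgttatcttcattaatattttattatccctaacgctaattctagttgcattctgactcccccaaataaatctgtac
Gm28438: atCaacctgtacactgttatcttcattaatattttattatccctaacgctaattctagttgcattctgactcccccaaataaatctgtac

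Copies of mt-Co2 (Gm28661, 681 bases), mt-Atp6 (Gm10925, 678 bases) and mt-Co3 (Gm28437, 783 bases) were identical to the mitochondrial sequence over their whole aligned length. These copies lie side by side at 24612775 to 24615565 on chromosome 1 of GRCm38. The share of a gene's 50-base windows found in another annotated gene was 100% for mt-Co2, 99.9% for mt-Co3, 99.5% for mt-Atp6 and 98.0% for mt-Nd3. It was 62.2% for mt-Nd4, 51.1% for mt-Co1 and 0% for mt-Cytb.

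Among the mitochondrially encoded genes, mt-Cytb, the cytochrome b subunit of complex III, had the highest level per transcript length, 178250 scaled counts per kb averaged over the 6 libraries. mt-Nd1 of complex I followed with 111360 and mt-Co1, the catalytic subunit of complex IV, with 111180 scaled counts per kb. The 4 genes with over 97% of their windows shared were lowest among those that passed the mean: mt-Nd3 had 1309, mt-Co3 36.9, mt-Atp6 33.4 and mt-Co2 17.3 scaled counts per kb. For mt-Co2, the second core subunit of complex IV, this rested on 30 reads in the untreated and 46 in the IFNg libraries. Reads that align to a gene and its copy stand in the separate row, so the levels of these 4 genes are not comparable with that of mt-Cytb. The levels of mt-Co1 (51.1% of windows shared) and mt-Nd4 (62.2%) may be too low for the same reason. The summed mitochondrial shares below leave out such reads too. Windows were searched in annotated transcripts only, and mt-Atp8, which overlaps mt-Atp6, had 4 and 10 reads. mt-Nd6 lies on the opposite strand from the other mitochondrial members, and with a library kit that does not keep strand its reads cannot be told apart from antisense RNA.

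**Figure D1:**
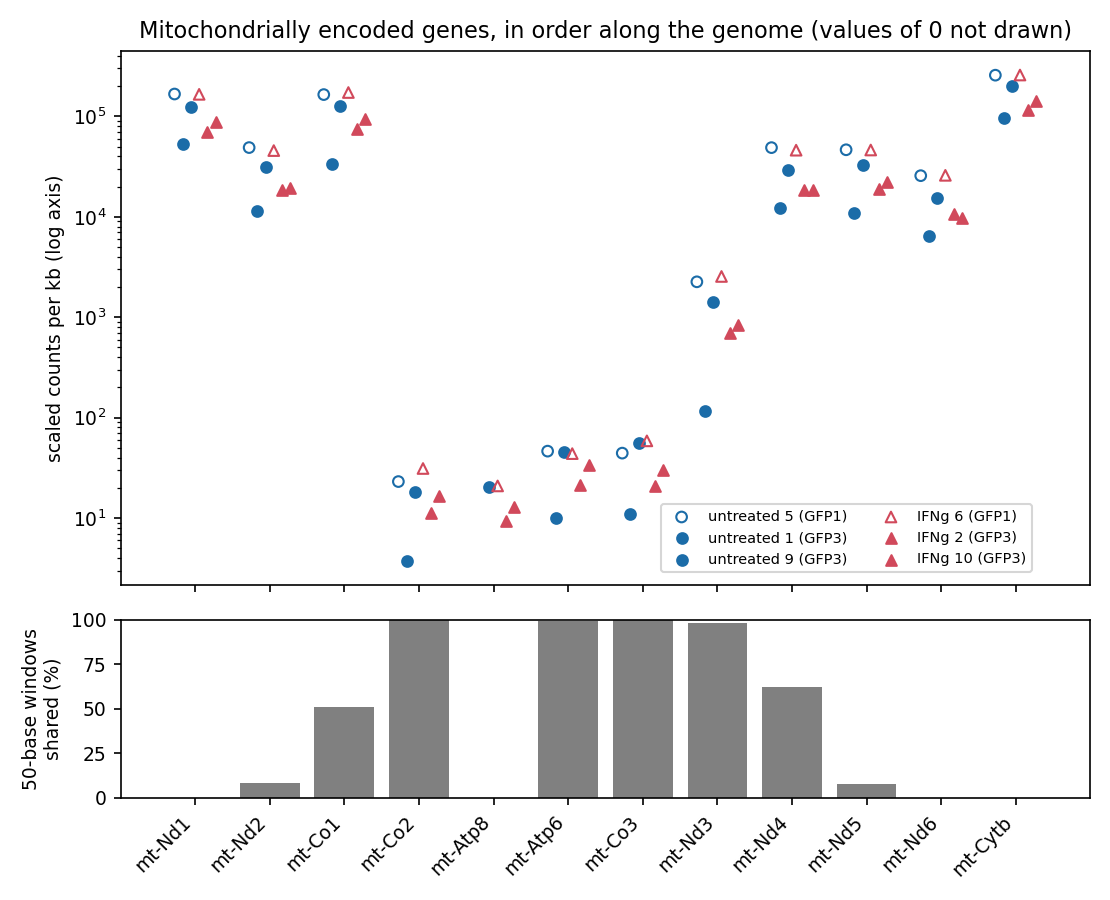
Upper panel: scaled counts per kb (log axis) of the 12 mitochondrially encoded genes in order along the mitochondrial genome, 1 point per library. Untreated libraries are blue circles, IFNg libraries red triangles, and open symbols are the GFP1 libraries; within a gene the points run from left to right as untreated 5, 1, 9 and IFNg 6, 2, 10. Lower panel: percent of each gene's 50-base windows found in another annotated gene. The 4 genes with shares over 97% lie below the other 7 that passed the mean, and untreated 1 is the lowest library for 11 of 11.

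Among nuclear members, Atp5b, the catalytic beta subunit of ATP synthase, was highest at 56431 scaled counts per kb, ahead of Atp5g3, a gene for its membrane ring subunit c, at 30140. The median level per kb was 4972 for the nuclear genes of complex I, 10990 for complex II, 10060 for complex III, 9831 for complex IV and 8509 for complex V. Sets of genes for the same subunit were dominated by 1 form. Cox6a1, the form found in most tissues, had 22001 scaled counts per kb, and Cox6a2, the heart and skeletal muscle form, had 3.83 from 17 reads in all. Cox7a2 was 80.6 times as high per kb as the muscle form Cox7a1 (70.9 to 102 times in single libraries), and Cox6b1 was 51.7 times as high as the testis form Cox6b2 (35.9 to 74.7 times). Cox7b was at 7418 scaled counts per kb and Cox7b2 at 5.13. The 3 genes for subunit c encode the same mature peptide, and Atp5g3 was 31.9 times as high per kb as Atp5g1 (28.6 to 35.7 times). The median lengths used were 718.5 bases for Atp5g3 and 2675.5 for Atp5g1, so the gap is smaller in scaled counts not divided by length. Of the 50-base windows of Atp5g1, 11.1% were shared with other genes. Atp5g2 was lower still, at 104 scaled counts per kb, but 87.4% of its windows were shared with other genes. Atp5l (68.5% shared, 655 scaled counts per kb) was the only other nuclear member above 50%. Across the 77 nuclear genes, the log2 level per kb and the share of windows shared had a Pearson r of -0.476 and a Spearman rho of -0.278, over genes that share the same 6 libraries and are not independent replicates.

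IFNg was compared with no treatment to ask whether the genes of the respiratory chain moved within 1.5 h. None of the 77 nuclear and none of the 11 mitochondrial genes passed limma's test at an adjusted p of 0.05, against 0.429% of all tested genes (69 of 16095). At an unadjusted p under 0.05 there was 1 nuclear gene, Uqcrfs1, and 0 mitochondrial genes. edgeR called 0 members (0.373% of all genes) and DESeq2 0 members (3.27%), with 0 at an unadjusted p under 0.05 in both. The median log2 change was -0.06 over the nuclear and 0.08 over the mitochondrial genes, beside -0.08 over all tested genes. Fitted changes lay above 0 for 25 nuclear and below 0 for 52, and above 0 for 7 mitochondrial and below 0 for 4. Over all tested genes 6911 lay above 0 and 9184 below. The genes share the same 6 libraries, so counts of signs, here and by complex below, are not independent and were not tested. IFNg and untreated values overlapped in all 88 members, while they did not in 13.2% of all tested genes. Each group holds 1 GFP1 library, so groups must overlap where both GFP1 values lie above, or both below, all GFP3 values. They lay above in 78 of the 88 members and below in 1, beside 3114 and 3000 of the 16095 tested genes. The overlap of most members was therefore fixed by libraries 5 and 6 and does not measure a response to IFNg.

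The summed share of gene reads gave the same picture for both genomes. Nuclear members took 2.74%, 1.74% and 2.00% of gene reads in untreated libraries 5, 1 and 9, and 2.82%, 1.91% and 1.66% in IFNg libraries 6, 2 and 10. The means were 2.16% ± 0.521 untreated and 2.13% ± 0.611 with IFNg (SD, n = 3 each). Library 5 and library 6 were high within their groups, and the groups overlapped. Mitochondrially encoded members took 3.08%, 0.765% and 2.19% in the untreated and 3.03%, 1.26% and 1.54% in the IFNg libraries. Their means were 2.01% ± 1.17 and 1.94% ± 0.954 (SD, n = 3 each), again overlapping, with untreated 1 lowest. In bulk samples a smaller share cannot be told apart from fewer cells that make the RNA or from less of it per cell.

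**Figure D2:**
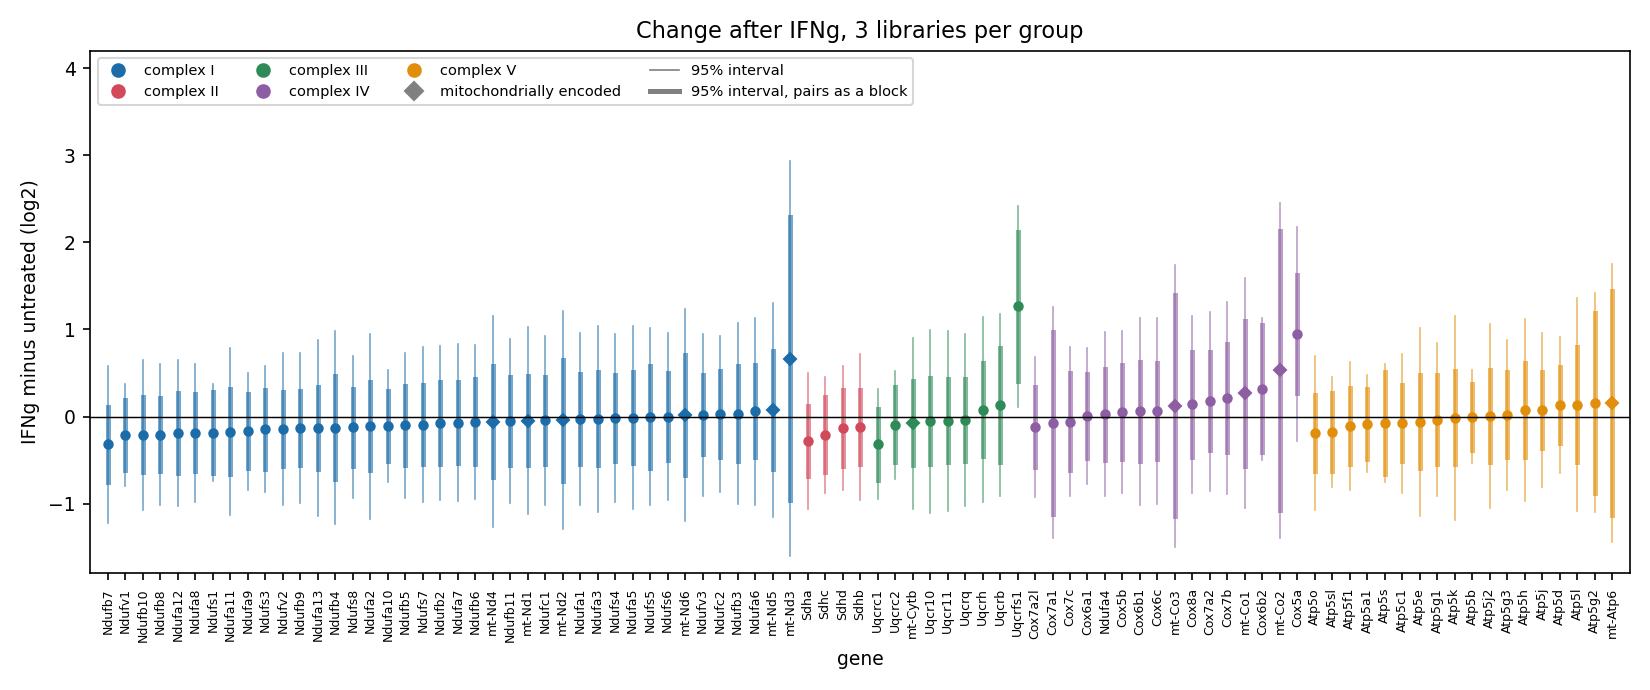
Fitted change with IFNg (log2, IFNg minus untreated, 3 libraries per group) of 87 genes, ordered within complexes I to V. Points are limma estimates (diamonds mitochondrially encoded), thin bars their 95% intervals and thick bars the intervals with neighbouring title numbers as a block. Most points lie close to 0 (median -0.06 nuclear, 0.08 mitochondrial), and Uqcrfs1 and Cox5a are the highest.

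The precision of these values differed between the genomes. For 39 of the 77 nuclear genes, 50.6%, the 95% interval lay within a 2-fold change in either direction, compared with 32.3% of all tested genes. For the mitochondrial genes it did so in 0 of 11, with a median half-width of 1.25 on the log2 scale against 0.89 for the nuclear genes. The libraries fell into neighbouring pairs of title numbers (5 with 6, 1 with 2, 9 with 10) that deviated together. With those pairs as a block 0 members were called (0.466% of all genes), and the interval lay within 2-fold for 72 nuclear (93.5%) and 6 mitochondrial genes (54.5%), beside 49.0% of all tested genes. The pairs were inferred from these same data, so part of this narrowing may be built in.

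By pair, the medians of the members differed in sign. In IFNg 6 minus untreated 5 the median log2 difference of the nuclear genes was 0.10 and 58 of 77 were above 0. In IFNg 2 minus untreated 1 it was 0.20 with 52 above 0, and in IFNg 10 minus untreated 9 it was -0.41 with 3 above 0. Those 3 were Cox5a, Atp5d and Uqcrfs1. For the mitochondrial genes the medians were 0.01, 0.79 and -0.56, with 6, 11 and 0 of 11 above 0. Over all tested genes the pair medians were 0.01, -0.08 and -0.18. The nuclear genes were lowest in untreated 1 in 39 cases and in IFNg 10 in 35, and the mitochondrial genes were lowest in untreated 1 in 11 of 11.

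**Figure D3:**
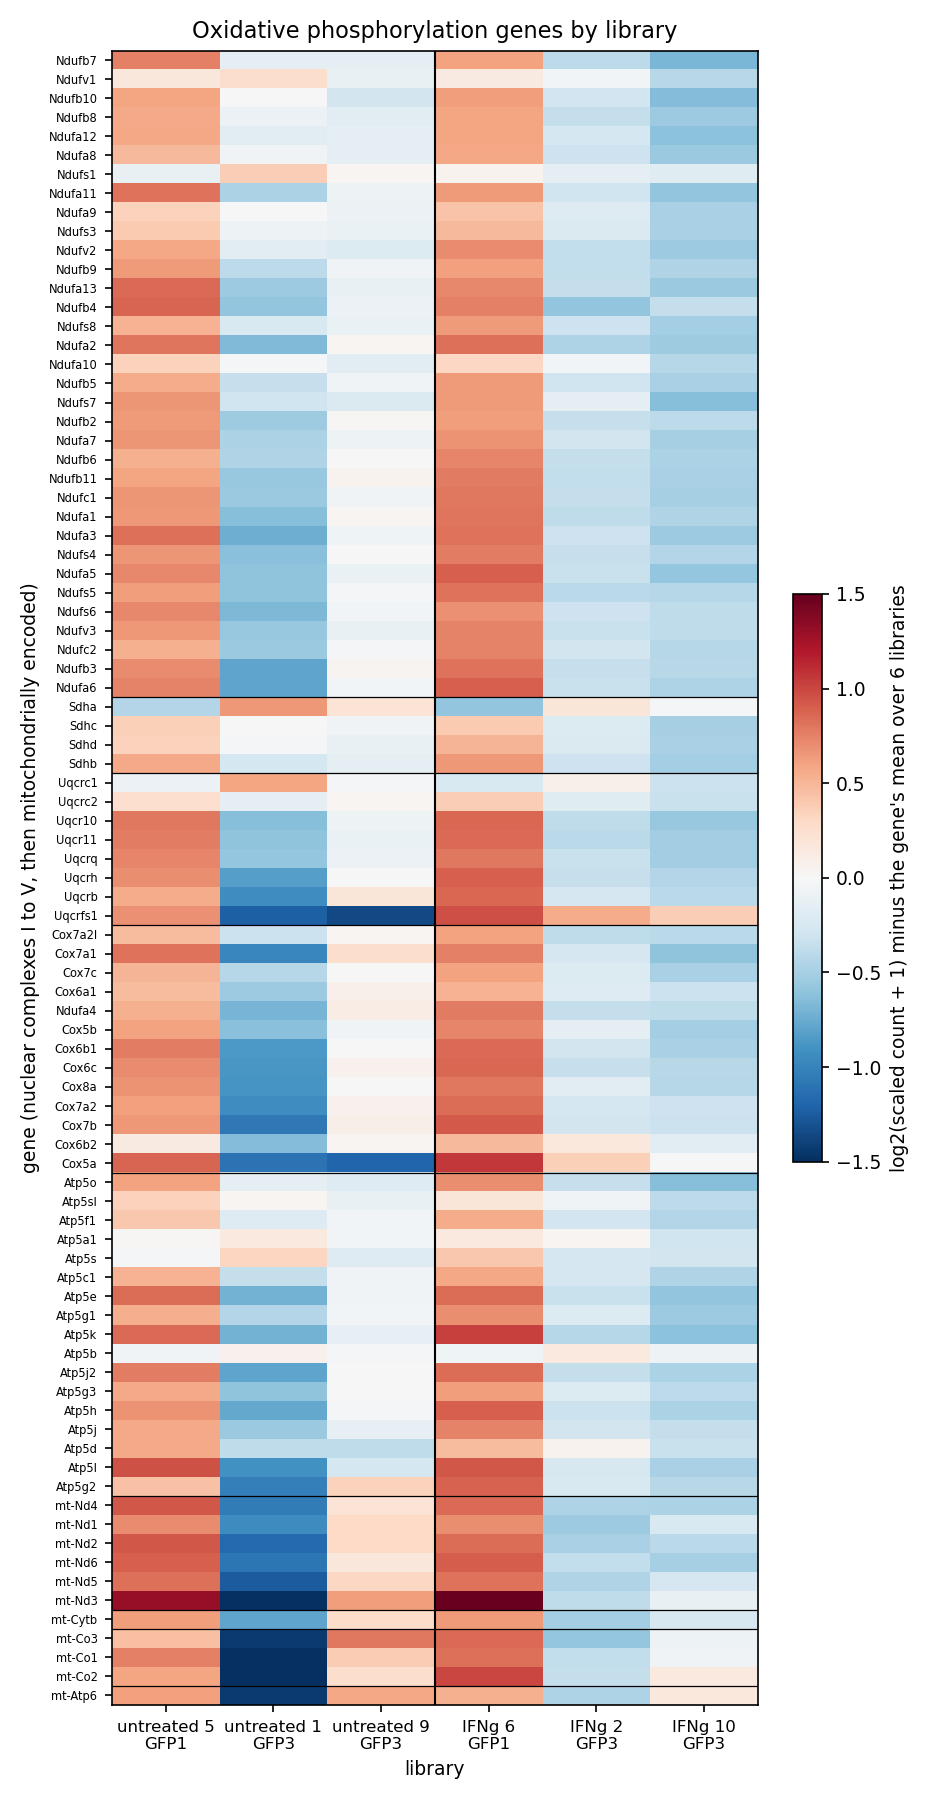
Each row is 1 of 87 genes and each column a library; colour gives log2(scaled count + 1) minus the gene's mean over the 6 libraries, limited to 1.5 either way. Nuclear genes come first by complex, then the mitochondrially encoded genes. The GFP1 libraries 5 and 6 are high for most rows, untreated 1 is low for the mitochondrial rows, and Sdha runs the other way.

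In complex I, the change with IFNg was below 0 for 30 of 35 nuclear genes, beside 9184 of 16095 tested genes. The median was -0.11, beside -0.08 over all tested genes, and the range -0.32 to 0.06 on the log2 scale. The lowest was Ndufb7, an accessory subunit, with scaled counts of 5082, 2715 and 2744 in untreated libraries 5, 1 and 9 and 4559, 2285 and 1869 in IFNg libraries 6, 2 and 10. Its log2 change was -0.32 with an SE of 0.40 (limma adjusted p = 0.906), and the groups overlapped. The highest was Ndufa6, another accessory subunit, at 0.06 with an SE of 0.47. The 7 nuclear core subunits all lay below 0, by a median of -0.14, and the 28 accessory subunits had a median of -0.07. None of these 35 values passed the test. Among the mitochondrial subunits, mt-Nd5 had 84802, 20088 and 59163 untreated and 84334, 34828 and 40209 with IFNg, a spread of 4.22-fold between libraries beside a log2 change of 0.08 with an SE of 0.54. mt-Nd3 had the widest spread of all members, 21.9-fold, from 40.4 in untreated 1 to 886 in IFNg 6.

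All 4 genes of complex II, which also works in the citric acid cycle, lay below 0, at -0.12 to -0.28. Sdha, the flavoprotein that oxidises succinate, had 20677, 43874 and 32334 scaled counts untreated and 18636, 31830 and 27675 with IFNg. Its low libraries were 5 and 6, where Sdhb, the iron-sulfur subunit, was high: 19281, 10796 and 11812 untreated and 20284, 10441 and 9106 with IFNg. Both genes had overlapping groups, with log2 changes of -0.28 (SE 0.34) for Sdha and -0.12 (SE 0.37) for Sdhb.

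In complex III, Uqcrfs1, the Rieske iron-sulfur protein, had the largest change of any member. Its scaled counts were 10334, 2736 and 2504 in untreated libraries 5, 1 and 9, and 12540, 9412 and 8314 in IFNg libraries 6, 2 and 10. The untreated libraries 1 and 9 were low and the other 4 were close to each other, so the groups overlapped through untreated 5. The log2 change was 1.26 with a 95% interval of 0.11 to 2.42 (limma unadjusted p = 0.035, adjusted p = 0.462). Uqcrc1, a large core subunit, was lowest at -0.32 (SE 0.28), with 27798, 44701 and 28910 untreated and 25337, 31137 and 23624 with IFNg. mt-Cytb, the mitochondrial partner of Uqcrfs1 in electron transfer, had 294080, 109924 and 229977 untreated and 295139, 133448 and 160931 with IFNg, a log2 change of -0.08 with an SE of 0.43. Cyc1, cytochrome c1, was outside the symbol rule and showed the order of Uqcrfs1: 16466, 6572 and 4882 untreated and 17887, 14572 and 11982 with IFNg (limma adjusted p = 0.643 over 6 libraries and 0.0239 in the GFP3 libraries alone).

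In complex IV, 10 of 13 nuclear genes lay above 0, beside 6911 of 16095 tested genes, with a median of 0.06. Cox5a, a subunit of the nuclear-encoded shell, was highest, with 9801, 2491 and 2351 scaled counts untreated and 11150, 6861 and 5392 with IFNg. As for Uqcrfs1, untreated 1 and 9 were low and untreated 5 was high. Its log2 change was 0.95 with an SE of 0.54 (limma adjusted p = 0.740). Cox5b, its neighbour in name, had 4648, 1987 and 2955 untreated and 5088, 2779 and 2155 with IFNg, a change of 0.05. mt-Co1 had 254582, 51469 and 196542 untreated and 266936, 116578 and 144510 with IFNg, a log2 change of 0.27 with an SE of 0.58 and overlapping groups.

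In complex V, 7 nuclear genes lay above and 10 below 0, all between -0.19 and 0.16. Atp5b varied least of all members, with 104253, 112914 and 106871 untreated and 103096, 119355 and 102236 with IFNg, a 1.17-fold range over the 6 libraries. Its log2 change was 0.00 with an SE of 0.23. Atp5a1, the alpha subunit, was similar, at -0.08 with an SE of 0.25. Atp5g3 had 30568, 13559 and 20511 untreated and 31754, 17841 and 15703 with IFNg, a log2 change of 0.02 with an SE of 0.38.

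With the 4 GFP3 libraries alone, 2 of the 77 nuclear genes were called higher with IFNg, against 8.27% of all tested genes (1331 of 16095), and 0 of 11 mitochondrial genes. Those 2 were Uqcrfs1 (log2 change 1.76, adjusted p = 0.00417) and Cox5a (1.33, adjusted p = 0.0128), by limma with 2 libraries per group. In these libraries the mean was 3.38-fold higher with IFNg for Uqcrfs1 and 2.53-fold for Cox5a. In the GFP1 pair of 1 library each, IFNg 6 stood at 1.21 and 1.14 times untreated 5. The limma interaction of tag and IFNg gave adjusted p = 0.153 and 0.281, but with 1 GFP1 library per group its spread comes from the GFP3 libraries only, so whether the changes differ between tags was not settled. Without untreated 5 alone, Uqcrfs1 was also called (log2 1.92, adjusted p = 0.0171), and Cox5a was not (adjusted p = 0.0565). Over 16 settings the adjusted p of Uqcrfs1 ran from 0.00417 to 0.992 and that of Cox5a from 0.0128 to 0.994.

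**Figure D4:**
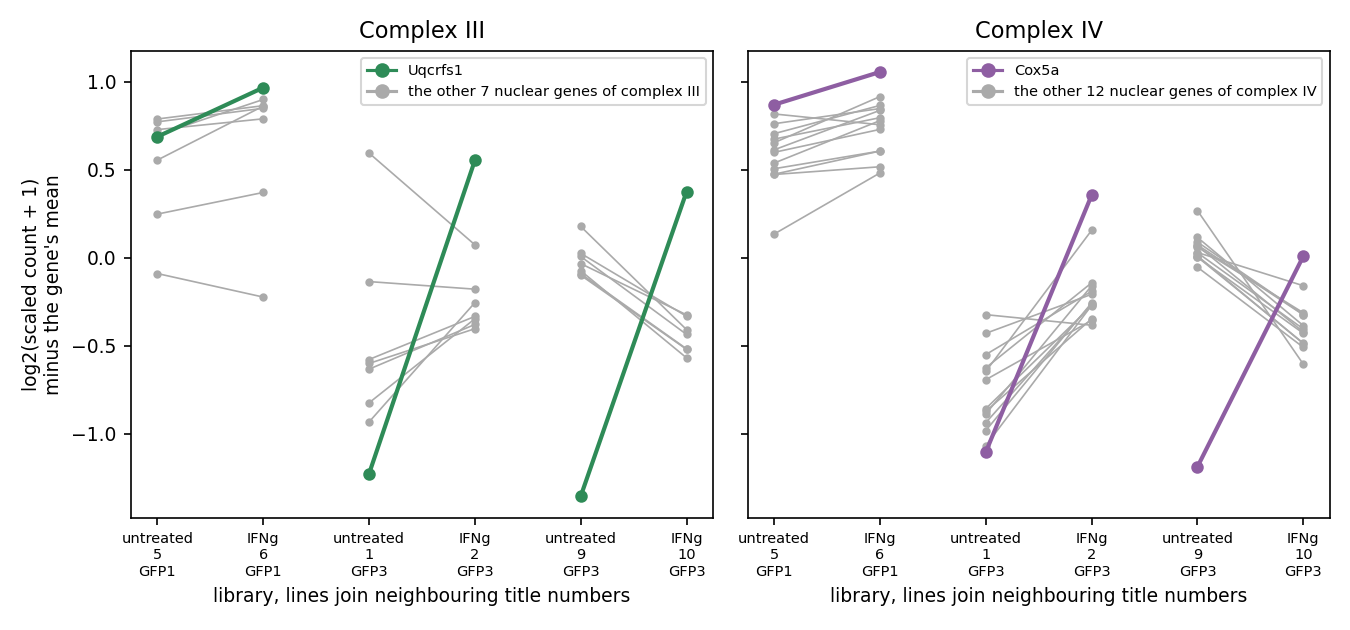
log2(scaled count + 1) minus the gene's mean over 6 libraries for the nuclear genes of complex III (left) and complex IV (right); lines join libraries with neighbouring title numbers. Uqcrfs1 and Cox5a (coloured) are low in untreated 1 and untreated 9 and higher in their IFNg partners, while all other genes shown lie lower in IFNg 10 than in untreated 9.

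By limma without the pairs as a block, genes that build or serve the complexes gave the same count of 0 over the 6 libraries. Among assembly factors, 0 of 49 were called by limma over all 6 libraries, where 0.429% of all genes were (4 at an unadjusted p under 0.05), with a median log2 change of -0.07. The GFP3 libraries alone called 6 of them (12.2%) higher, beside 8.27% of all tested genes: Ndufaf6 for complex I, Sdhaf1 for complex II, Cox11, Cox18 and Lrpprc for complex IV, and Tmem70 for complex V. Lrpprc, which stabilises mitochondrial mRNAs, had 3152, 1685 and 1142 scaled counts untreated and 3188, 5617 and 5883 with IFNg (limma adjusted p = 0.312 over 6 libraries). Further lists held 16 genes of mitochondrial DNA expression, 12 nuclear regulators, 13 citric acid cycle, 9 coenzyme Q synthesis and 16 glycolysis genes. Limma without the pairs as a block called 0 of them over the 6 libraries. In the same order, the median log2 changes were -0.20, -0.22, -0.15, -0.11 and -0.12. DESeq2 called 1 nuclear regulator and 1 glycolysis gene (3.27% of all genes), and limma with the block 1 glycolysis gene (0.466%). Ppargc1a, a coactivator that drives mitochondrial biogenesis, had 745, 747 and 699 untreated and 558, 629 and 467 with IFNg (log2 -0.42, SE 0.26, limma adjusted p = 0.798). Ppargc1b had 692, 905 and 784 untreated and 443, 664 and 524 with IFNg (log2 -0.56, limma adjusted p = 0.649). Esrra, a nuclear receptor that works with Ppargc1a, had 372, 166 and 232 untreated and 519, 623 and 1333 with IFNg (limma adjusted p = 0.296, DESeq2 0.0239). Groups did not overlap in these 3 of the 12 regulators, beside 13.2% of all tested genes. Mterf1a had the largest change among the mitochondrial DNA expression genes, with 85.3, 116 and 110 untreated and 58.0, 48.2 and 40.4 with IFNg (log2 -1.08, limma adjusted p = 0.37). Hk2, the inducible hexokinase that starts glycolysis, had 1713, 3340 and 2798 untreated and 4931, 9419 and 9471 with IFNg. Every IFNg library lay above every untreated one, with a log2 change of 1.59 and an SE of 0.36. Over the 6 libraries, limma without the block did not call Hk2 (adjusted p = 0.202). Limma with the pairs as a block (0.0181) and DESeq2 (0.00318) did. In the GFP3 libraries alone limma called 1 of 16 glycolysis genes higher with IFNg (Hk2, adjusted p = 0.00541) and 1 of 12 nuclear regulators (Esrra, 0.0131). It also called 1 of 16 mitochondrial DNA expression genes higher (Polg, the mitochondrial DNA polymerase, 0.0284) and 1 of 9 coenzyme Q genes (Coq2, 0.0463). Of the 13 citric acid cycle genes it called 0. The same fit called 8.27% of all tested genes higher (1331) and only 12 genes lower.

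The larger separation among these libraries followed the title tag, a comparison added after the values had been seen. Libraries 5 and 6, which carry GFP1, are also 1 of the 3 pairs of neighbouring title numbers. The limma fit of the tag counted them as separate replicates. Its p-values and calls, here and below, therefore do not measure spread between GFP1 pairs. With treatment as a term, 48 of the 77 nuclear genes were higher in the GFP1 libraries 5 and 6 than in the 4 GFP3 libraries and 0 were lower, against 2.28% of all tested genes called higher and 5.47% called lower. The median difference was 0.98 on the log2 scale, beside -0.04 over all tested genes. In 69 of 77 nuclear genes both GFP1 values were above all 4 GFP3 values, which held for 19.3% of all tested genes. By complex, 28 of 35, 1 of 4, 4 of 8, 5 of 13 and 10 of 17 nuclear genes of complexes I to V were called. Of the mitochondrial genes, mt-Nd4 and mt-Nd6 were called, and the median of the 11 was 1.19. Atp5k, a small membrane subunit of ATP synthase, had 2965 and 3370 scaled counts in GFP1 libraries 5 and 6, and 1009, 1518, 1222 and 1077 in GFP3 libraries 1, 9, 2 and 10 (log2 difference 1.41, SE 0.24, limma adjusted p = 0.0247).

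Several of the longer genes did not follow. Sdha was lower in GFP1, by a log2 difference of -0.77 with an SE of 0.21 (limma adjusted p = 0.0603), with both GFP1 values below all GFP3 values. Uqcrc1 (-0.24), Atp5b (-0.09) and Ndufs1 (-0.05) were the other 3 nuclear genes below 0. The median difference was 1.10 for 27 genes with transcripts under 600 bases, 1.00 for 23 of 600 to 1000 bases, 0.87 for 11 of 1000 to 1500 bases and 0.35 for 16 above 1500 bases. Across the 77 genes the difference and log2 transcript length had a Pearson r of -0.698 and a Spearman rho of -0.655. Over 16022 tested genes with an annotated length they were -0.372 and -0.424. These are descriptions across genes of the same libraries. Cytoplasmic ribosomal protein genes, also short, had a median difference of 1.10 with 23 of 98 called, and mitochondrial ribosomal protein genes 0.75 with 25 of 77 called.

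**Figure D5:**
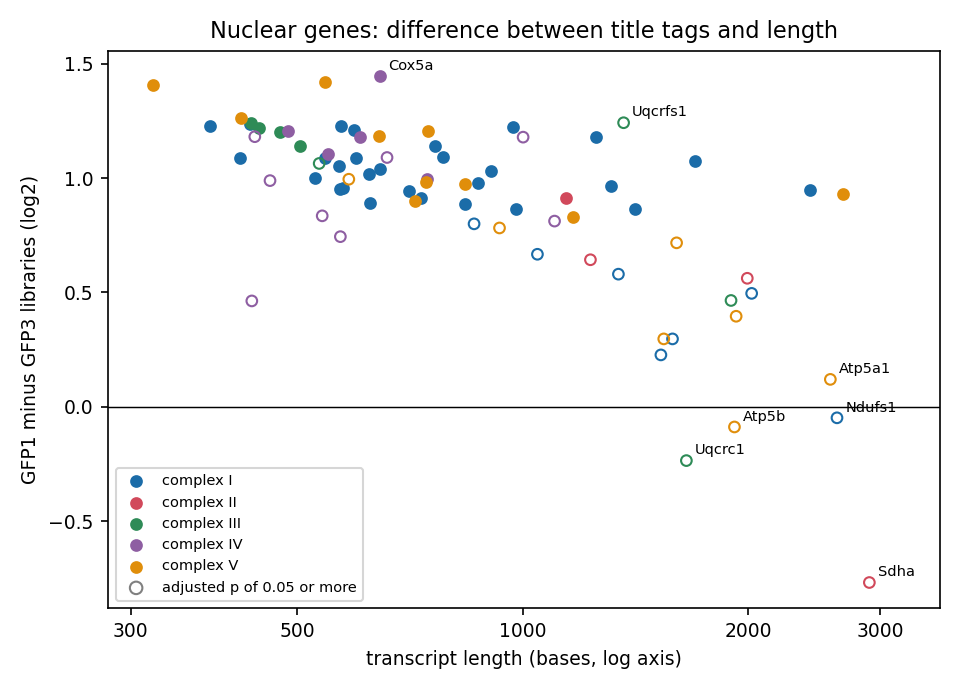
Each point is 1 of the 77 nuclear genes, placed by transcript length (bases, log axis) and by the fitted difference between the GFP1 and GFP3 libraries (log2); filled points had a limma adjusted p below 0.05. Genes under 1000 bases lie mostly near 1, and Sdha, Uqcrc1, Atp5b and Ndufs1 lie below 0.

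Other values moved with the tag. The GFP1 libraries had 19734 and 20216 genes above 0 and the GFP3 libraries 21301 to 22371, and 15.4% of reads in the table were unaligned in GFP1 against 8.83% to 13.0% in GFP3. Reads aligned to several places were 24.5% and 25.0% of the table in GFP1 and 18.5% to 23.9% in GFP3, and reads in no annotated gene 9.67% and 11.5% against 11.8% to 14.2%. Lgr5 was lower in GFP1 (log2 difference -1.14, limma adjusted p = 0.0346). It was the only one of the 8 stem markers called, and the list split. Fitted differences lay above 0 for 4 of the 8, with a median of -0.04. Both GFP1 values lay above all GFP3 values for 3 stem markers, Ascl2 among them, and below for 2, Lgr5 among them. The summed shares of the stem markers overlapped. Enterocyte markers took 0.0933% to 0.100% of gene reads in GFP1 and 0.106% to 0.146% in GFP3, and enteroendocrine markers 0.0151% to 0.0239% against 0.0258% to 0.0562%, both without overlap. Single genes split, with fitted differences above 0 for 3 of 9 enterocyte and 4 of 7 enteroendocrine markers. Goblet sums (0.257% to 0.28% in GFP1, 0.191% to 0.743% in GFP3) and tuft sums (0.00908% to 0.00924% against 0.00705% to 0.0118%) overlapped. Paneth markers took 0.0787% to 0.351% of gene reads in GFP1 and 0.335% to 1.15% in GFP3, with 9 of 9 fitted differences below 0. The part of transcript length, alignment, Lgr5 level and marker RNA of other cell types in the tag difference was not tested, and the tag cannot be told apart from anything else that set libraries 5 and 6 apart.

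The sequence before the start of the genes was searched for motifs of NRF1, GABP and YY1, factors known to regulate respiratory genes. Interferon response motifs and the CCAAT box were searched too. The search used RefSeq windows of 250 bases before to 50 after each start (GRCm38.p6), on both strands. Of the 77 nuclear genes 64 had a window. The NRF1 core CGCATGCG lay in windows of 9 genes (14.1%), against 2.07% of all 27025 genes with a window and 4.08% of 10658 tested genes. The ETS core CCGGAAG, bound by GABP, lay in 16 (25.0%, against 9.93% and 19.0%) and the YY1 core AAGATGGC in 9 (14.1%, against 3.19% and 5.03%). The interferon gamma activated site TTCNNNGAA lay in 4 (6.25%, against 9.55% and 8.47%) and the IRF pattern AANNGAAA in 14 (21.9%, against 26.7% and 21.2%). The CCAAT box lay in 28 (43.8%, against 41.1% and 42.9%). A gene counted if any of its windows matched. Members had 1.08 windows per gene and tested genes 1.28, with a median GC of 57.8% and 60.3%. The shares therefore do not compare like amounts and kinds of sequence. A match of letters does not show that a factor binds, and motifs may overlap each other. The stretch before both annotated starts is shown, gene strand 5′ to 3′, for Cox6a1 (chr5:115348982-115349208, minus strand) with an NRF1 core and Uqcr11 (chr10:80406831-80407071, minus strand) with an ETS core, each in capitals. It is also shown for the 2 genes with the largest IFNg changes, Uqcrfs1 (chr13:30545363-30545566, minus strand) and Cox5a (chr9:57520982-57521231, plus strand), whose windows held none of the first 5 motifs (the CCAAT box is not marked in capitals).

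Cox6a1: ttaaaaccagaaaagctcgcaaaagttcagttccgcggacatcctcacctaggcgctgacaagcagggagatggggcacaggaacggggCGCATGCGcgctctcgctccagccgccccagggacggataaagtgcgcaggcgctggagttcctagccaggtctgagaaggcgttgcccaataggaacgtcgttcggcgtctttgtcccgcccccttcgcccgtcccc
Uqcr11: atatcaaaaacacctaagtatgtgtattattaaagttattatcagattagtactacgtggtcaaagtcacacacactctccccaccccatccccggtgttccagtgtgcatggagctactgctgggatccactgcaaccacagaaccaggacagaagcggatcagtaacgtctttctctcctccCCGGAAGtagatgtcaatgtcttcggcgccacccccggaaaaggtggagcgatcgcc
Uqcrfs1: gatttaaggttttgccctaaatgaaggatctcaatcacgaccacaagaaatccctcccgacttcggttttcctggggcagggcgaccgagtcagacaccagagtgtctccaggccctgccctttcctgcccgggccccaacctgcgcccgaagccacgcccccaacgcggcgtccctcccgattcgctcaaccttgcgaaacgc
Cox5a: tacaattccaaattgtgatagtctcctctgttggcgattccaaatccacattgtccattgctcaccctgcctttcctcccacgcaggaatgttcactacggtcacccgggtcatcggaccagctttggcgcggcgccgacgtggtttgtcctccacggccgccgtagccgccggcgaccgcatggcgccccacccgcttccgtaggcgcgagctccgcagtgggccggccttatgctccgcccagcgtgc

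Beside these sequences, Cox6a1 had 16801, 8261 and 12727 scaled counts untreated and 17321, 10604 and 9662 with IFNg, a log2 change of 0.00 with an SE of 0.35. It was high in libraries 5 and 6, as most members were, and so were Uqcrfs1 and Cox5a. For Uqcrfs1 and Cox5a, untreated 9 held the lowest of the 6 values, the only 2 of the 77 nuclear members for which it did. The trait was not particular to them. Outside the symbol rule, untreated 9 was also lowest for Cyc1 and for assembly factors such as Lrpprc and Tmem70.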

How the data were processed

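RNA of sorted cells was amplified with SMART-Seq v4 from 2 ng, per the labels' protocols; this kit primes on poly(A) tails and marks neither strand nor single molecules. Per the submitters' processing notes, the tools included HTSeq 0.5.3, DESeq 1.22.1, STAR 2.5.0a and cutadapt 1.6, with the build mm10; the role of each is not given there. The deposited signal values are the authors' read counts divided by 1 size factor per library: 100% of 138762 values came out as whole reads within 0.01, and the reads were recovered from them. 4 rows that name no gene stayed out of library sizes and tests.

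Members and gene lists were chosen with earlier results of these data known. limma 3.58.1 (R 4.3.3, trend and robust) was fitted to log2(scaled count + 1) of the 16095 genes with a mean of at least 10, two-sided, with Benjamini-Hochberg adjustment at 0.05; a fold change on this scale understates the change of low genes. edgeR 4.0.16 (quasi-likelihood, 60 genes called) and DESeq2 1.42.0 (465 called) on the recovered reads were alternatives. The limma steps were run on simulated counts that held no tag or pair differences. That run does not measure power or error rates in these libraries. Lengths are the median of a gene's basic coding transcripts in GENCODE M21. The labels do not pair libraries: neighbouring title numbers were used as pairs because deviations from the group means correlated at 0.302, 0.404 and 0.252 within pairs. Correlations between pairs were below 0, which adds little, because deviations from a group's mean sum to 0. Named genes were all mitochondrial members and, per complex, called genes, the 2 of highest level (taken per kb), the largest changes each way and isoform sets. A member that the rule picked is not reported here and is left out of the plots that name each gene (87 drawn). Atp5k, Cox5b, Atp5a1, Ndufs1, Atp5d and Atp5l were named after their values were seen, and so were Uqcr11, Lgr5, Olfm4 and the genes of the other lists.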

Additional observations from a re-analysis of the deposited data

How the results depend on the processing

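Counts of members called with IFNg stayed at 0, higher and lower, in both genomes under a pseudocount of 10, no filter, TMM scaling, equal totals, edgeR, DESeq2, the replicate block, the tag as a block and without members of mostly shared sequence. The replicate block, with pairs inferred from the data, changed no call of a member. Nuclear genes called higher numbered 2 in the GFP3 libraries alone and 0 to 1 without 1 library, the 1 being Uqcrfs1 without untreated 5; the other counts stayed at 0. The nuclear median ran from -0.40 (without IFNg 6) to 0.26 (without untreated 5), and the mitochondrial one from -0.53 (without untreated 1) to 0.47 (without untreated 5). The ratio of IFNg to untreated shares ran from 0.826 to 1.14 (nuclear) and from 0.695 to 1.32 (mitochondrial). Of 36 genes named by rule and tested, 30 changed the sign of their fitted change in at least 1 of 15 alternatives, in 73 of 216 values without 1 library and 21 of 324 others. Scaling moved the median of all genes from -0.08 to -0.12 (TMM) and -0.05 (equal totals). For mt-Co2, mt-Atp6 and mt-Co3, 3 to 54 reads per library limit what could be detected.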
